A study of Mus musculus with 12 samples.

Results

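The Ssx and Slx genes are germ cell genes of the mouse X chromosome whose probes were followed in cultured osteosarcoma cells. Of the 39429 probes of the array besides controls, 7 carried an accession of a listed gene. They stood for 6 genes, namely Ssxb1, Ssxb2, Ssxb9, Ssxb10 (with 2 probes), Slx and Slxl1, out of 20144 genes with a matched probe. Ssxb3 and Ssxb5, the other 2 of the 8 listed genes, had no matched probe. The genes were picked because most of them rose in late LM8 cells, so their values in that comparison are a description and were not tested.

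Ssx genes code for nuclear proteins that repress transcription together with polycomb proteins, and are normally silent outside the testis. In many human tumours they are expressed again, which makes them cancer-testis genes, and in synovial sarcoma an SSX gene is fused to SS18. Slx and Slxl1 belong to an X-linked family related to the synaptonemal complex gene Sycp3. They are expressed in spermatids, where Slx acts against the Y-linked relative Sly on the expression of the sex chromosomes.

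The mouse osteosarcoma line Dunn metastasises little, and the metastatic subline LM8 was selected from it in vivo. Total RNA of early and late passages was hybridised to 12 Agilent single-colour arrays, 3 for each of the 4 groups, namely Dunn at passage 25 (early) and passage 86 (late) and LM8 at passage 24 (early) and passage 91 (late). No cells were treated, early and late cells had been frozen and thawed before RNA extraction, and since LM8 descends from Dunn both stand for 1 tumour. The source label of the arrays speaks of human cell lines, whereas their organism and description name mouse cells. Of the 10 osteoblast markers measured, all were well above background on every array, and none was called with passage in either line.

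The arrays lay on 3 slides, and the replicate number marks the slide. Values are the processed signal of the scanner software, an intensity after background subtraction, on the log2 scale relative to the 75th percentile of the same array. A value of 0 therefore means a signal as bright as that percentile. The percentile ran from 287.2 to 961.4 on the Dunn arrays and from 893 to 1903 on the LM8 arrays, and was 603 or less on the early Dunn arrays alone. The lowest signal that the software called well above background was 32.3 and 36.45 on the early and late Dunn arrays of slide 1 and 9.586 to 16.67 on the other 10 arrays. Replicate 1 of late Dunn cells stood apart, with correlations of 0.919 and 0.923 with the other 2, which had 0.986 with each other. P-values measure the spread between 3 arrays a group, and the number of arrays limits the precision. The late cells of each line were derived from its early cells, and no separately passaged cultures are described. P-values therefore do not measure variation between separate passage histories of a line. In a bulk RNA sample, fewer cells that express a gene and less RNA per cell cannot be told apart.

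Promoter sequences of 6 of the 8 listed genes were found in the RefSeq table (build GRCm38.p6), the exceptions being Ssxb9 and Ssxb10. The 250 bases before the start of 4 genes are shown to compare a copy whose probe was bright in late LM8 cells (Ssxb1) with one whose probe stayed at background (Ssxb2), and the 2 Slx relatives with each other. They are written 5′ to 3′ on the strand of the gene, with each CpG pair, the site of DNA methylation in mammals, in capitals. Ssxb1 is at chrX:8413055-8413304 on the plus strand, Ssxb2 at chrX:8461727-8461976 on the minus strand, Slx at chrX:26545566-26545815 on the minus strand and Slxl1 at chrX:55226626-55226875 on the plus strand.
Ssxb1: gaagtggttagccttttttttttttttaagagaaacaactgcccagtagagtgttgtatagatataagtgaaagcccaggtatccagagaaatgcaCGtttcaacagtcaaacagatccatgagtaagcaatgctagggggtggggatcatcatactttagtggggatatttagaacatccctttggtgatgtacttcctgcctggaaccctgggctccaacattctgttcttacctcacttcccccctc
Ssxb2: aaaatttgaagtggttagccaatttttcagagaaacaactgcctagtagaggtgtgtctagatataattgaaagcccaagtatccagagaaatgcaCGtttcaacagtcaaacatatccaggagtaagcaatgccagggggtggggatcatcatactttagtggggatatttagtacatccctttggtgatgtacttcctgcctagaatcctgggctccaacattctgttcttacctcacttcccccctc
Slx: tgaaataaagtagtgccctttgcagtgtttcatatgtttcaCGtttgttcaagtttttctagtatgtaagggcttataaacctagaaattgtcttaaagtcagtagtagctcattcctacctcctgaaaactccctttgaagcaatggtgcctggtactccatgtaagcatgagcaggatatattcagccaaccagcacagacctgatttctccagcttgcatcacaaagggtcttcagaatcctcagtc
Slxl1: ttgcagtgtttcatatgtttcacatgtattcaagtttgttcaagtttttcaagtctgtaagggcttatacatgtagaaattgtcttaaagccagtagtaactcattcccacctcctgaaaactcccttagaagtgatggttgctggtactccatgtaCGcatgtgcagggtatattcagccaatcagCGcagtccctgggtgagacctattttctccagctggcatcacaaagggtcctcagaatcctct

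Over the 300 bases of the table (250 before and 50 after the start), Ssxb1 was identical to Ssxb2 in 90.3% of aligned positions and to Ssxb3 in 92.4%, but to Ssxb5 in 40.8%. Ssxb5 was closest to Ssx9, a family member that was not listed, with 92.1%. Slx and Slxl1 shared 79.9%. The promoters held few CpG pairs. Ssxb1, Ssxb2 and Ssxb3 had 1 each, Slx had 2, Ssxb5 had 3 and Slxl1 had 5, whereas the median over 32851 promoters of the same length was 7. The E-box CACGTG, the cyclic AMP element TGACGTCA, the Sp1 box GGGCGG and the E2F site TTTCCCGC were searched on both strands and matched none of the 6 promoters; they are present in 7.15%, 1.79%, 35.7% and 1.07% of all promoters. The TATA box TATAAA matched Slx alone (13.6% of all promoters hold it), and the CCAAT box matched Ssxb2 and Slxl1 (37.4%). These matches describe letters and not binding sites.

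In late LM8 cells, 3 Ssx probes were bright that had been dim in early LM8 cells. The mean differences of Ssxb1, Ssxb9 and Ssxb10 probe 1 corresponded to 42.4-fold, 43-fold and 32.3-fold. Early LM8 cells were well above background on only 1 of 3 arrays for Ssxb9, whose difference was 5.43 on the log2 scale and 4.84 with a floor on dim signals. Slx was 2.49-fold higher in late than in early LM8 cells, and Slxl1 at least 1.31-fold. In 5 of the 7 probes every late array lay above every early array, where this held for 6.52% of all probes, and since the genes were picked for this contrast nothing is read from that count. The probe of Ssxb2 and probe 2 of Ssxb10 were not well above background on any of the 12 arrays.

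**Figure D1:**
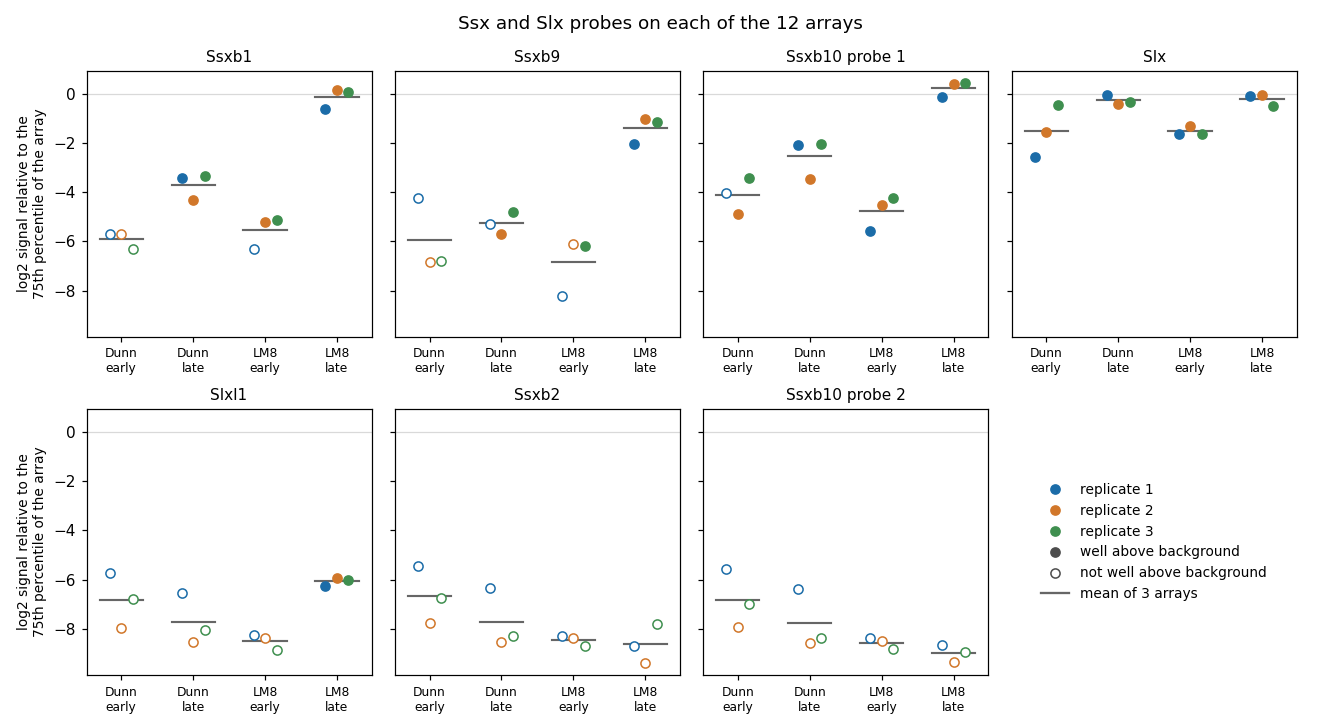
Log2 signal of each of the 7 probes relative to the 75th percentile of the array (y axis) on the 12 arrays, by group (x axis) and replicate (colour); filled points are well above background and lines are means of 3 arrays. Ssxb1, Ssxb9 and Ssxb10 probe 1 lie highest in late LM8 cells, Slx is well above background in all groups, and Ssxb2 and Ssxb10 probe 2 have open points throughout.

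Ssxb1 codes for a member of the Ssx repressor family. In LM8 cells, its log2 signal was -6.30, -5.19 and -5.14 on the early arrays of replicates 1, 2 and 3 and -0.64, 0.15 and 0.08 on the late arrays. The means were -5.54 ± 0.66 and -0.14 ± 0.44 (SD, n = 3), a difference of 5.41 with a standard error of 0.39. Before scaling, the processed signal was 11.3 to 36.1 in early and 749 to 2110 in late LM8 cells, and 2 of 3 early arrays were well above background. In Dunn cells, the log2 signal was -5.68, -5.68 and -6.30 on the early arrays and -3.43, -4.32 and -3.35 on the late arrays. No early Dunn array was well above background, all 3 late ones were, and early and late arrays did not overlap. Late LM8 arrays thus lay above late Dunn arrays, and both above the early arrays of the 2 lines, which overlapped. The early groups have no settled order, since early Dunn cells were at background, and late Dunn cells were lower than early ones by 0.56 with normexp correction.

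Ssxb9 is a further copy of the family. Its log2 signal was -8.21, -6.11 and -6.17 on the early and -2.03, -1.03 and -1.14 on the late LM8 arrays, with the early array of replicate 1 the lowest of the 12. The means were -6.83 ± 1.20 and -1.40 ± 0.55 (SD, n = 3), and the difference was 5.43 with a standard error of 0.61. In Dunn cells the values were -4.24, -6.83 and -6.80 early and -5.31, -5.68 and -4.80 late, so the passages overlapped through the early array of slide 1. Well above background were 0 of 3 early and 2 of 3 late Dunn arrays, 1 early LM8 array and all 3 late LM8 arrays. Late LM8 cells thus lay above the other groups, which have no settled order because most of their arrays were near or below the limit of background.

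Ssxb10 had 2 probes that did not show the same pattern. Probe 1 had -5.57, -4.51 and -4.25 in early LM8 cells and -0.14, 0.41 and 0.44 in late LM8 cells. The means were -4.78 ± 0.70 and 0.23 ± 0.33 (SD, n = 3), a difference of 5.01 with a standard error of 0.38. In Dunn cells it had -4.05, -4.89 and -3.41 early and -2.10, -3.47 and -2.05 late, where the early array of replicate 3 lay just above the late array of replicate 2. Late LM8 cells were again highest. Late Dunn overlapped with early Dunn arrays, and these with early LM8 arrays. Probe 2 had means of -8.55 ± 0.23 in early and -8.98 ± 0.34 in late LM8 cells (SD, n = 3), with processed signals of 2.77 to 2.95 in late cells, below the lowest signal called well above background on those arrays. The level of Ssxb10 is therefore uncertain, since the probes of the gene disagree.

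The probe sequences are not in the files used here. Copies of this family can be near-identical, as the promoters of Ssxb1, Ssxb2 and Ssxb3 were, so a probe named for one copy may also bind RNA of another. Signals of the 3 bright Ssx probes moved together, with Pearson correlations over the 12 arrays of 0.93 between Ssxb1 and Ssxb9, 0.96 between Ssxb1 and Ssxb10 probe 1 and 0.93 between Ssxb9 and Ssxb10 probe 1. Probe 1 and probe 2 of Ssxb10 had -0.33. The arrays share their groups, and the values carry no test. Which of the copies gave the signal was not tested.

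**Figure D2:**
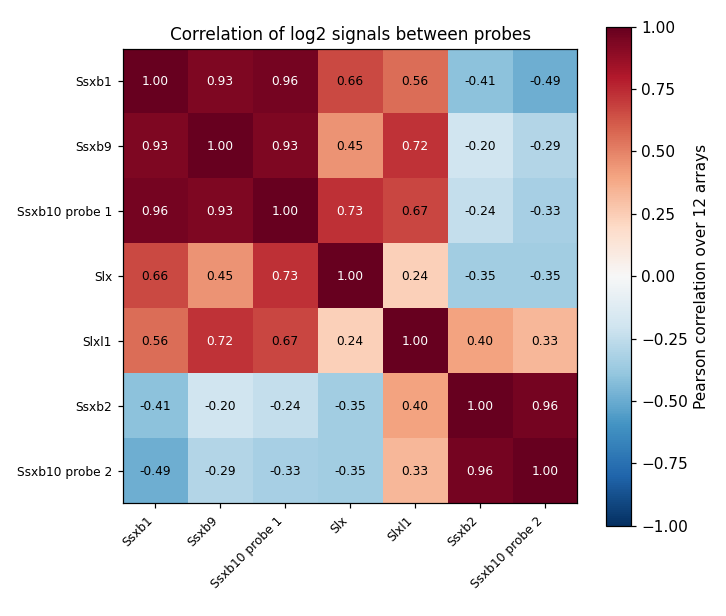
Pearson correlation of the log2 signals of each pair of the 7 probes over the 12 arrays (colour and printed value). The 3 bright Ssx probes correlate at 0.93 to 0.96, and the 2 probes at background, Ssxb2 and Ssxb10 probe 2, at 0.96 with each other.

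Slx was well above background on all 12 arrays. Its log2 signal was -1.64, -1.33 and -1.63 in early and -0.10, -0.04 and -0.51 in late LM8 cells. The means were -1.53 ± 0.18 and -0.22 ± 0.26 (SD, n = 3), a difference of 1.32 with a standard error of 0.22. In Dunn cells it was -2.56, -1.57 and -0.44 early and -0.04, -0.42 and -0.35 late. The early Dunn arrays thus spread over a wider range than the other groups, and the highest of them lay just below the lowest late array. Late LM8 and late Dunn cells overlapped, as did early LM8 and early Dunn cells.

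Slxl1, the Slx-like relative, was well above background on the 3 late LM8 arrays and on none of the other 9. It was -8.26, -8.37 and -8.84 in early LM8 cells and -6.24, -5.93 and -6.02 in late LM8 cells. The measured means were -8.49 ± 0.31 and -6.06 ± 0.16 (SD, n = 3), a difference of 2.43 with a standard error of 0.23. As the early signals were not above background, the change is given as a bound. On each early array the probe was raised to the lowest signal called well above background there, where its own was lower, and the late mean was at least 1.31-fold above the mean so obtained. The processed signals in late LM8 cells were 15.5 to 31.1, close to that limit. On the log2 scale this floor gives a difference of 0.39, and normexp background correction gave 0.09. The limit differs between probes. On the early LM8 array of replicate 2, Ssxb9 at 19.1 was not well above background, although the lowest signal so called was 16.67. Folds given as at least a value therefore hold for this floor and are no strict bounds. The Dunn arrays had -5.73, -7.97 and -6.80 early and -6.55, -8.54 and -8.06 late, all at background, and the first of these lay above the late LM8 arrays on this scale. On that array the lowest signal called well above background was 32.3.

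Ssxb2 and Ssxb10 probe 2 had no array above background, so no change is read from them. As the 2 probes of Ssxb10 disagreed, a probe at background need not mean a low level of its gene. The processed signal of Ssxb2 lay between 2.22 and 9.35 on the Dunn arrays and between 2.80 and 6.12 on the LM8 arrays. The differences in LM8 were -0.18 with a standard error of 0.40 for Ssxb2 and -0.43 with a standard error of 0.25 for Ssxb10 probe 2, and early and late arrays overlapped for both.

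In slide by slide comparisons, where the early and late array of a slide were set against each other, the 5 probes were higher in late LM8 cells on all 3 slides. The differences were 5.66, 5.34 and 5.22 for Ssxb1, 6.17, 5.08 and 5.03 for Ssxb9, and 5.43, 4.92 and 4.69 for Ssxb10 probe 1. They were 1.55, 1.28 and 1.12 for Slx and 2.02, 2.44 and 2.83 for Slxl1. Each group always had the same position on the slide, so position and group cannot be told apart. Normexp correction with an offset of 50 reduced the differences of the Ssx probes to 3.38 for Ssxb1, 2.72 for Ssxb9 and 3.55 for Ssxb10 probe 1.

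The comparison of late with early Dunn cells was not used to pick the genes and was tested with limma. No member probe met an adjusted p under 0.05 with a change over 2-fold (0% of all probes were called higher and 0.00254% lower). At the level used in the study, over 2-fold at an unadjusted p under 0.05, 2 of the 7 probes were higher and none lower, where 1.2% and 2.78% of all probes were. These 2 probes were Ssxb1 and Ssxb10 probe 1, which may bind RNA of the same copy and are no independent readings. In 2 of the 7 probes, Ssxb1 and Slx, every late array lay above every early array, which held for 2.53% of all probes. In these 2 it held in both lines, as in 0.713% of all probes. Since the genes were picked for the LM8 contrast, nothing is read from the count over both lines. The median difference of the 7 probes was 0.69, where the median of all probes was -0.33.

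Ssxb1 had the largest difference of the 7 in Dunn cells, with means of -5.89 ± 0.36 early and -3.70 ± 0.54 late (SD, n = 3). The difference was 2.19 with a standard error of 0.41 (limma, adjusted p = 0.421). Early cells were not above background, so the change is a bound of at least 1.93-fold. The difference was positive on each slide, with 2.25, 1.36 and 2.95, and it was 2.16 without slide 1. It did not keep its sign with normexp correction, which gave -0.56. With 1 fit over all arrays the adjusted p was 0.0346, which was the only setting that called a member, whereas it was 0.0716 when only probes above background were fitted and 0.207 in the fit blocked by slide.

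Ssxb10 probe 1 was higher in late Dunn cells at the unadjusted level only, by 1.57 with a standard error of 0.59 (limma, adjusted p = 0.782). Without slide 1 it was 1.39 and no longer passed that level, and with normexp correction it was -0.19. Slx was higher in late Dunn cells by 1.25 with a standard error of 0.59, which did not pass at the unadjusted level either (limma, adjusted p = 0.782). On the 3 slides the difference of Slx was 2.52, 1.15 and 0.08, and without slide 1 it was 0.62. Ssxb9 differed by 0.69 with a standard error of 0.80 (limma, adjusted p = 0.847), with early Dunn cells at background. The difference of Ssxb9 was -0.25 with a floor on dim signals, -1.10 with normexp correction and 1.57 without slide 1, a setting added after seeing the data. The remaining probes were not well above background in either passage and had differences of -0.88 for Slxl1, -1.06 for Ssxb2 and -0.94 for Ssxb10 probe 2, at adjusted limma p of 0.782 for each. Same-numbered early and late Dunn arrays deviated together, and with the slide as a block 3 probes passed the unadjusted level, the additional one being Ssxb2, which was at background. Leaving out single arrays, 1 probe passed that level without replicate 2 of early or replicate 1 or 3 of late Dunn cells, and 3 passed without replicate 3 of early Dunn cells.

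**Figure D3:**
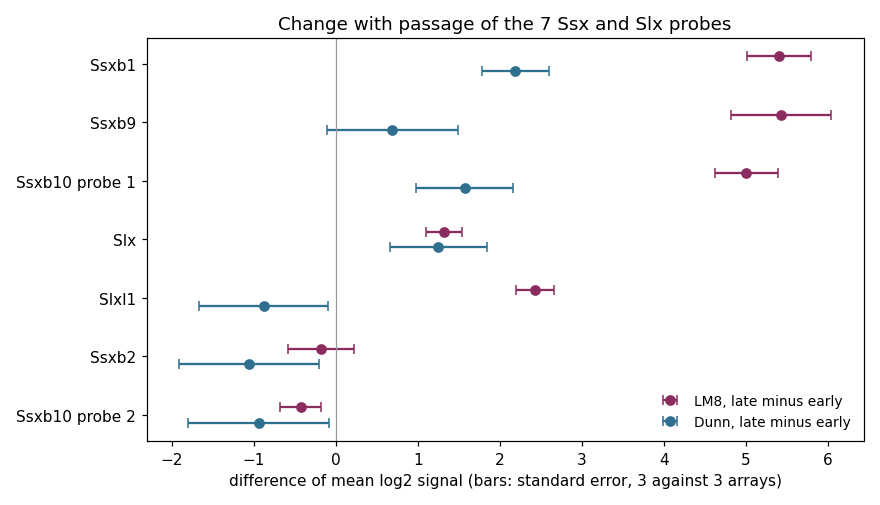
Difference between the late and early mean log2 signal (x axis) of the 7 probes (y axis) in LM8 and Dunn cells; points are differences and bars standard errors, from 3 late and 3 early arrays. The 3 bright Ssx probes lie between 5.01 and 5.43 in LM8 cells and between 0.69 and 2.19 in Dunn cells, and the points for Slx lie close together, at 1.32 and 1.25.

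The early LM8 arrays entered the choice of the genes, so the difference between early LM8 and early Dunn cells is given as values and was not tested. The same holds for late LM8 against late Dunn cells. Both comparisons also share arrays with the passage comparisons. Early LM8 cells had no probe of the 7 with all arrays above those of early Dunn cells (5.34% of all probes had) and 3 with all arrays below (46.7%), which were Ssxb2, Ssxb10 probe 2 and Slxl1, all at background. The difference was 0.34 for Ssxb1, -0.87 for Ssxb9, -0.67 for Ssxb10 probe 1 and -0.01 for Slx. Early Dunn cells were at background for Ssxb1 and Ssxb9, and the signs were not stable. With a floor on dim signals and with normexp correction, Ssxb1 had -0.90 and -1.50. In the deposited table without scaling, Ssxb9 had 0.60, Ssxb10 probe 1 had 0.80, Slx had 1.46 and the median of the 7 was 0.60. After scaling, the median of the 7 was -0.87 and that of all probes -0.853, and the early Dunn arrays had the lowest 75th percentiles of the 4 groups. The part of brightness in these differences was not tested. In late passages, LM8 exceeded Dunn by 3.56 for Ssxb1 (11.8-fold), 3.87 for Ssxb9 (14.6-fold) and 2.77 for Ssxb10 probe 1 (6.83-fold). For Slx the difference was 0.05 with a standard error of 0.25. No difference is given for Slxl1, since late Dunn cells were at background and the lowest signal called well above background on their slide 1 array, 36.45, exceeded the late LM8 signals of 15.5 to 31.1. In 4 of the 7 probes every late LM8 array lay above every late Dunn array (8.57% of all probes), Slxl1 with this limit being one of them, and in 1, Ssxb10 probe 2, every one lay below (42.2%). The genes were picked for a rise in late LM8 cells, so nothing is read from these counts.

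Among genes related to the members or known to bind their products, 15 of 21 listed genes were measured, of which 2 were called higher in late LM8 cells and none lower. Counting 1 probe a gene, 1% of all genes were called higher and 1.82% lower in LM8. The 2 genes were Ssxb8 and Ssx9, further copies of the family that lie next to the listed Ssx genes. Ssxb8 had processed signals of 4.81, 25.7 and 19.3 in early and 407, 1230 and 867 in late LM8 cells, before scaling. On the log2 scale it rose by 5.46 with a standard error of 0.53 (limma, adjusted p = 0.00382). Ssx9 was not well above background in early LM8 cells and had processed signals of 152, 654 and 390 in late ones, at least 20.5-fold higher (limma, adjusted p = 0.00369). A second probe of Ssx9 was not well above background on any array and differed by 0.02, so the 2 probes of this gene disagreed as those of Ssxb10 did. In Dunn cells, Ssxb8 differed by 1.37 (limma, adjusted p = 0.782) and Ssx9 by 0.79 (limma, adjusted p = 0.862). Because these copies may share target sequence with the member probes, they are no independent readings. The members were picked for the LM8 contrast, so nothing is read from the LM8 p-values of Ssxb8 and Ssx9 or from the count of 2.

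None of the other 13 measured genes of that list was called in LM8 cells. At the unadjusted level Sycp3 was higher and Ssty2, which was not well above background on any LM8 array, lower. In Dunn cells none of the 15 was called or passed the unadjusted level. Ss18, the partner of SSX in the synovial sarcoma fusion, differed by -0.41 (limma, adjusted p = 0.310). Ssx2ip and Rab3ip, found as binding partners of SSX, differed by -0.32 and 0.31 at adjusted limma p of 0.320 and 0.319. Spin1, a chromatin reader bound by Slx and Sly, differed by 0.27 (limma, adjusted p = 0.425), and Sycp3 by 1.51 (limma, adjusted p = 0.272). Of 25 measured factors that silence germ cell genes, such as the DNA methyltransferase Dnmt1, the polycomb subunit Ezh2 and the E2F repressor E2f6, none was called in either line, and none passed over 2-fold at an unadjusted p under 0.05 either.

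Among other cancer-testis and X-linked germ cell genes, 67 of 81 were measured. In Dunn cells none was called (0% of all genes higher and 0.00497% lower). In late LM8 cells 6 were called higher and none lower, next to 1% and 1.82% of all genes. The list was chosen with earlier results of these data known, so nothing is read from that count. The largest differences were those of the X-linked lymphocyte-regulated genes Xlr4b, at least 44.7-fold higher (limma, adjusted p = 0.000182), and Xlr4a, at least 12.9-fold higher (limma, adjusted p = 0.00169). Magea10, a MAGE antigen gene, was at least 1.75-fold higher (limma, adjusted p = 0.00329). The median difference over the 67 genes was -0.21 in LM8, next to -0.195 over all probes. At the unadjusted level, 1 of the 67 was higher and 2 were lower in late Dunn cells, next to 1.34% and 3.52% of all genes.

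None of the 16 male germ cell markers measured was called in either line, and none passed the unadjusted level. Their summed signal, in units of the 75th percentile, was 0.178 to 0.304 in early and 0.188 to 0.251 in late LM8 cells, and 0.285 to 0.722 in early and 0.215 to 0.837 in late Dunn cells. Ddx4, Dazl, Dppa3, Piwil1, Sycp2 and Tnp2 were not well above background on any array. Acr, Pgk2, Prm1, Prm2, Tnp1 and Zpbp were well above background on all 3 late LM8 arrays, with processed signals of 14.6 to 141. Acr, Prm1, Prm2 and Zpbp were so on all 3 early LM8 arrays too. Of 7 Sertoli and Leydig cell markers 1 was called, the X-linked homeobox gene Rhox5, which rose by 5.85 in LM8 (limma, adjusted p = 0.000111) and had a difference of 3.41 in Dunn cells (limma, adjusted p = 0.108). No marker of blood (6 measured), endothelial (5) or epithelial cells (5) was called in either line.

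The Ssx genes and the Slx genes lie in separate stretches of the X chromosome, and the 10 nearest genes with a probe on each side of each stretch, 62 genes in all, were examined. In LM8 cells 8 of them were called higher and 1 lower, next to 1% and 1.82% of all genes. The 8 include Ssxb8 and Ssx9, which are no independent readings. The neighbours were also chosen with earlier results of these data known, so nothing is read from the count in LM8. Besides Ssxb8 and Ssx9, the Ssx stretch held Fthl17f, a ferritin heavy chain-like gene, which was at least 1.55-fold higher (limma, adjusted p = 0.0299). Fthl17f was also among the other cancer-testis genes called higher. Next to Slx, Gm10487 rose by 4.47 (limma, adjusted p = 0.00186), Gm5935 by 4.00 (limma, adjusted p = 0.00180) and Gm4907 by 1.88 (limma, adjusted p = 0.00369). Without probe sequences, whether the probes of Slx and of these genes bind the same RNA was not tested. The gene called lower was Dock11, with a fall of 1.68 (limma, adjusted p = 0.0297), but it was not well above background on any LM8 array. Next to Slxl1, 3830403N18Rik rose by 3.33 (limma, adjusted p = 0.00136) and Gm773 was at least 4.47-fold higher (limma, adjusted p = 0.000541). The median over the 62 genes was 0.01. In Dunn cells none was called, while 7 were higher and 1 lower at the unadjusted level (1.34% and 3.52% of all genes), among them Gm10487 with 2.24, Gm5935 with 1.74 and 3830403N18Rik, at background in early Dunn cells, with at least 1.72-fold.

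**Figure D4:**
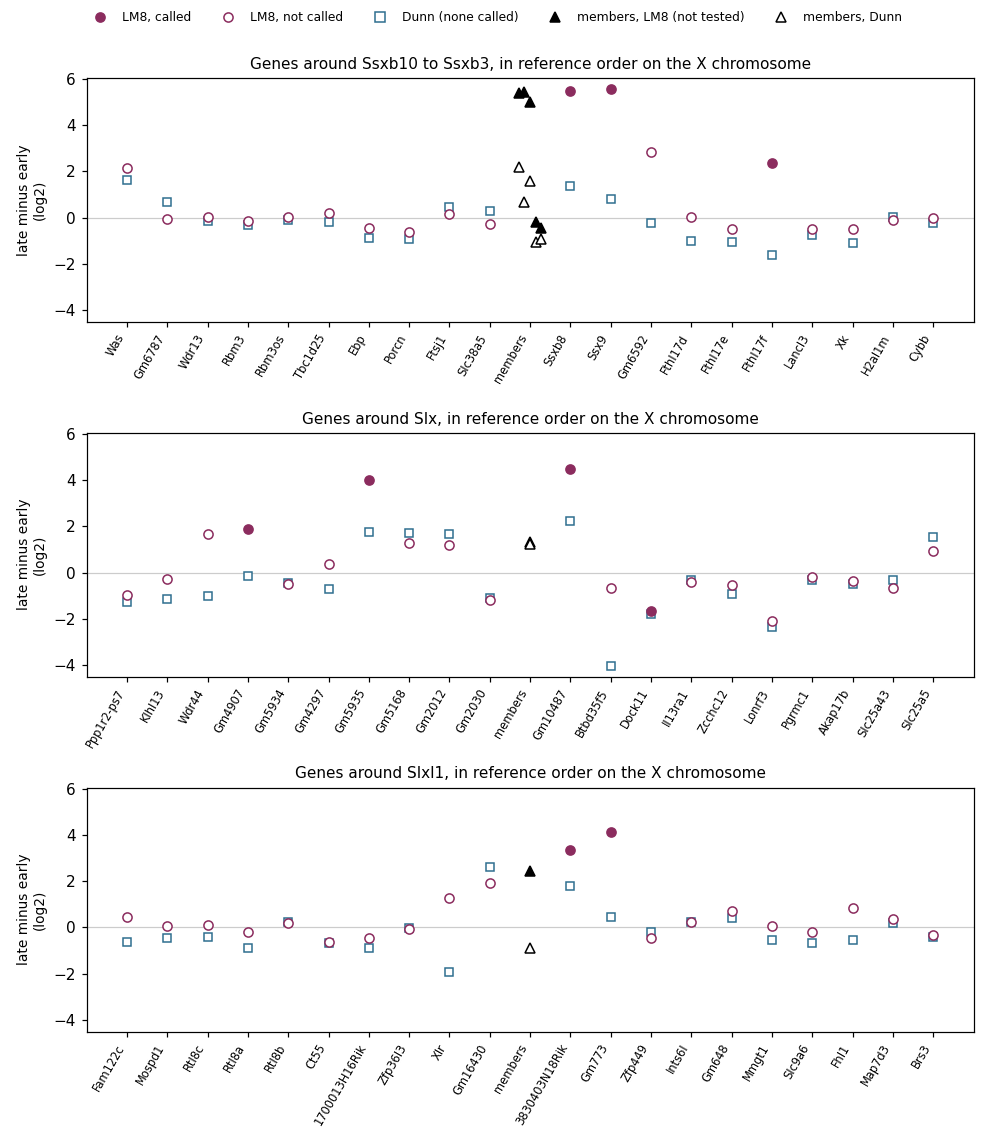
Late minus early difference on the log2 scale (y axis) of the 10 nearest genes with a probe on each side of the Ssx genes, Slx and Slxl1 (x axis, in reference order), in LM8 (circles, filled where called) and Dunn cells (squares); triangles are the members. In each panel the gene directly after the members (Ssxb8, Gm10487, 3830403N18Rik) was called in LM8, and the gene directly before them (Slc38a5, Gm2030, Gm16430) was not. Gm16430 rose by 1.94 without being called (limma, adjusted p = 0.112), and Ssxb8 is no independent reading. No difference between the sides is read from this. No gene was called in Dunn.

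The 5 genes outside the members whose pattern over the 12 arrays was most like the mean of the member probes were chosen among 10942 genes well above background in late LM8 cells. They were Ssxb8 (r = 0.974), Myh3 (0.967), Ssx9 (0.964), Xlr4a (0.953) and Gm773 (0.951). All but Myh3, which codes for embryonic myosin heavy chain and lies on chromosome 11, are on the X chromosome. The members were picked for a rise in late LM8 cells, so genes high in these cells were favoured. Ssxb8 and Ssx9 are no independent readings, and Gm773 is a neighbour of Slxl1. Nothing is therefore read from their place on the X chromosome. The log2 signal of Myh3 was -4.26 ± 0.22 in early and -1.90 ± 0.08 in late LM8 cells and -3.58 ± 0.27 and -3.26 ± 0.17 in early and late Dunn cells (SD, n = 3). The 12 points share their groups, and the correlations are given without a test.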

How the data were processed

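RNA of 12 samples was hybridised to mouse arrays of 1 colour. The authors deposited the output of Agilent Feature Extraction 10.7.3 for each array, whose processed signal is an intensity after background subtraction with no scaling between arrays, as well as a joint table with these intensities rounded. There were 0 columns of values without a sample. The genome build and annotation of the array design are not given in the sources used here.

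Spots of controls and spots with an outlier flag were removed, and the 43020 spots besides controls gave 39429 probe means. The deposited intensities were put on the log2 scale as the difference from the array's 75th percentile. Accessions of 26581 probes (67.4%) matched genes of the GRCm38.p6 reference table, which was used for names and gene order. The listed genes, gene lists and neighbours were chosen with earlier results of these data known. Named were all listed genes, for each list and line the 3 called genes with the largest change, called neighbours and the 5 genes most like the members. Where a gene outside the members had several probes, the one with the highest mean signal was used.

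Late and early cells of each line were compared with limma 3.58.1 (lmFit and eBayes) in R 4.3.3, as 2 groups without a block, with Benjamini-Hochberg adjustment over all probes tested (39407 in Dunn and 39428 in LM8). A call was a change over 2-fold at an adjusted p under 0.05. Scripts were tested on simulated data. Input was read by the R package data.table (version 1.17.8) with jsonlite 2.0.0. Promoters were aligned globally with Biopython 1.88, and figures made with matplotlib 3.10.9.

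The replicate number marks the slide. Deviations from the group means correlated by 0.678, 0.636 and 0.226 between same-numbered early and late Dunn arrays. In LM8 the values were 0.28, -0.0112 and 0.133, so the ranges of the lines overlapped. The main tests did not pair arrays by slide in either line. Only the fits with the replicate block took the slide into account. The alternatives were quantile normalization, another set of probes for the percentile, the deposited table without scaling, normexp correction, raising dim signals to a floor, fitting only probes above background, 1 fit over all arrays, the replicate block, the methods' t-test and leaving out each array. Leaving out slide 1 was added after seeing the data. Normexp was run on the median signal and median background of the spots with an offset of 50. The mean signal was not used here.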

Additional observations from a re-analysis of the deposited data

How the results depend on the processing

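The higher signal of Ssxb1, Ssxb9, Ssxb10 probe 1, Slx and Slxl1 in late LM8 cells kept its direction under every alternative run. The median difference of the 7 probes in LM8 was 2.43, and 2.80 in the deposited table without scaling, 1.17 with normexp, 1.32 with a floor on dim signals and 5.01 with only probes well above background, which left 5 of the 7. Median differences of all probes in LM8 were -0.195 and, without scaling, 0.168. The cause of these shifts was not tested beyond the number of probes.

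In Dunn cells, 0 member probes were called at an adjusted p under 0.05 and 2 at an unadjusted p, against 1 called with 1 fit over all arrays (adjusted) and, unadjusted, 0 with normexp, 0 with the floor, 1 with the methods' t-test and 3 with the replicate block. Leaving out single arrays gave 0 and 1 to 3. Signs turned with normexp for Ssxb1 (-0.56), Ssxb10 probe 1 (-0.19) and Ssxb9 (-1.10), with the floor for Ssxb9 (-0.25), with quantile normalization for Slxl1 (0.03) and in the deposited table for Slxl1 (0.08) and Ssxb10 probe 2 (0.02). The number of all probes called in Dunn was 1, and between 0 (replicate block) and 522 (1 fit over all arrays) otherwise.

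In LM8, probes at background turned with quantile normalization (0.28 for Ssxb2 and 0.06 for Ssxb10 probe 2) and, for Ssxb2, in the deposited table (0.18) and with single arrays left out (-0.59 to 0.20, positive without replicate 2 of late cells). The median difference of early LM8 from early Dunn cells was -0.87, and -0.12 with quantile normalization, -1.81 with normexp and 0.60 in the deposited table. In that comparison the deposited table also turned Slx (1.46), Ssxb10 probe 1 (0.80) and Ssxb9 (0.60), the percentile over other probes Slx (0.23), normexp and the floor Ssxb1 (-1.50 and -0.90), leaving out slide 1 Ssxb9 (0.67), and leaving out single arrays Slx (-0.53 to 0.53).

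Of the listed genes outside the members, 0 were called in Dunn cells, and 2 with quantile normalization, 2 with only probes well above background, 2 without slide 1, 6 with 1 fit over all arrays and 0 to 1 with single arrays left out. Unadjusted, there were 12, and 22 with quantile normalization, 19 in the deposited table, 31 with the replicate block, 31 without slide 1 and 8 to 33 with single arrays left out (the highest without replicate 1 of late Dunn cells). In LM8 there were 15, and 8 with the methods' t-test. The block changed no other call of these counts beyond 1.5 times. Signals near the lowest signal well above background limit Slxl1, Ssxb2 and Ssxb10 probe 2.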
